A study of Mus musculus with 8 samples.

Results

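Foxa2-positive cells are the small class of SN4741 cells in which the Foxa2 transcript was counted more than once. A cell was a member when it held 2 or more unique molecular identifiers (UMIs, each a count of 1 captured RNA molecule) of Foxa2. Only cells with 8000 or more UMIs, 200 to 6000 detected genes and at most 15% of UMIs from mitochondrial genes were considered. Members were thus selected on their Foxa2 UMI count, so Foxa2 values and the share of members are a description with no test, and the transcript was left out of the gene comparisons. By this rule 356 of 11839 cells were Foxa2-positive, 207 of 6442 at 37°C and 149 of 5397 at 39°C. The deposited matrices held 19125 cells in all. The comparison class was the 9994 cells with 0 Foxa2 UMIs, and the 1489 cells with exactly 1 UMI were kept apart. SN4741 is a clonal mouse line derived from the embryonic substantia nigra of a transgenic embryo, in which the tyrosine hydroxylase promoter drives the heat-sensitive tsA58 SV40 T antigen. The line is known to carry an unstable, polyploid karyotype. The 4 libraries at the permissive temperature (37°C) came from cultures in DMEM with 10% fetal bovine serum and penicillin-streptomycin. The 4 libraries at the non-permissive temperature (39°C) came from cultures kept for 48 hours in the same medium with 0.5% serum, so temperature and serum cannot be told apart.

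Foxa2 is a forkhead transcription factor that can open compact chromatin, and it is used in the floor plate of the neural tube, in midbrain dopaminergic precursors and in endoderm. In the ventral midbrain it acts downstream of sonic hedgehog and together with Lmx1a and Lmx1b. En1, a homeobox factor, marks the midbrain and anterior hindbrain and supports the survival of dopaminergic neurons. Nr4a2 (Nurr1) is the orphan nuclear receptor that drives tyrosine hydroxylase and other genes of dopamine handling.

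Foxa2 itself was a rare transcript. Its level over all kept cells of a library was 10.64 to 14.22 counts scaled to 1000000 UMIs (CPM), and 284 of the 356 members held 2 UMIs, just inside the rule. A further 56 members held 3 UMIs and 16 held 4 or more, with a highest count of 7, while the 1489 cells with 1 UMI lay just outside. The 11839 kept cells held 2300 Foxa2 UMIs in all, so a count of 0 does not show that a cell lacked the transcript. The part of random capture in the split into classes was not tested. At 37°C, replicates 1 to 4 held 50, 53, 66 and 38 Foxa2-positive cells, or 2.97%, 3.64%, 4.21% and 2.19% of their kept cells. At 39°C, replicates 1 to 4 held 46, 30, 50 and 23, or 5.06%, 1.95%, 2.98% and 1.81%. The libraries of the temperatures overlapped, with 39°C replicate 1 highest of all and 39°C replicate 4 lowest. Averaged over 4 libraries each (± SD), members made up 3.25% ± 0.873 of kept cells at 37°C and 2.95% ± 1.498 at 39°C. The 39°C mean minus the 37°C mean was -0.304 percentage points. With every cell thinned to 8000 UMIs the shares were 1.03% ± 0.250 and 1.35% ± 0.396 (n = 4 each), so the difference changed sign to 0.319 points.

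**Figure D1:**
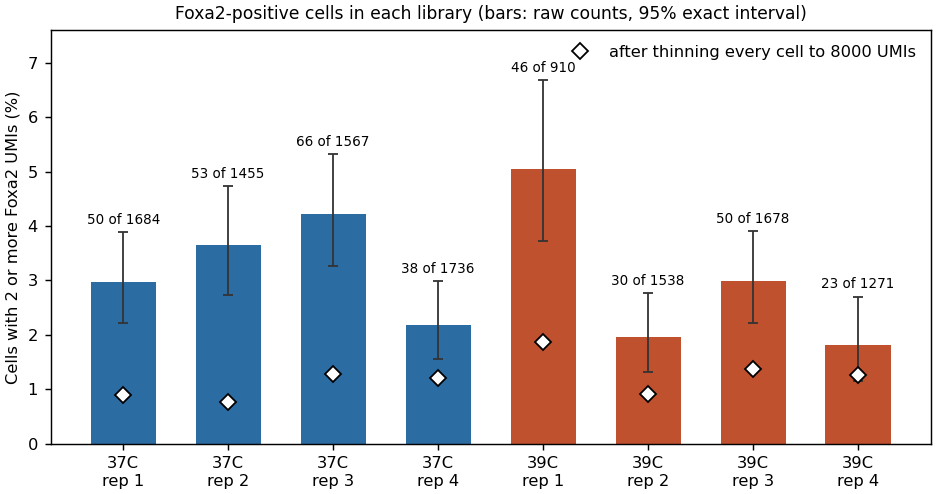
Share of kept cells with 2 or more Foxa2 UMIs in each library (y axis, percent; x axis, library; blue at 37°C, red at 39°C), with 95% exact binomial intervals that cover counting error only, and diamonds for the share after thinning every cell to 8000 UMIs. The shares run from 1.81% to 5.06%, and the libraries of the temperatures overlap.

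Members were deeper cells than the rest. Their median count was 11487 to 22263 UMIs by library, against 10376.5 to 17068.5 in cells with 0 Foxa2 UMIs. Gene comparisons therefore set each member against the 5 cells with 0 Foxa2 UMIs of the same library that were nearest to it in total UMIs (the matched cells). The kept cells held 175371504 UMIs, 14573066 to 27289301 per library. Any pair of libraries shared at most 2 cell barcodes, and 0 barcodes of members occurred in more than 1 library. No doublet caller was used, so the upper limit on genes was the only guard against cells captured together. The libraries hold no cell type known to lack Foxa2, so the share of its UMIs that could come from free RNA was not measured.

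En1 was found in 4.78% ± 3.83 of Foxa2-positive cells and 6.56% ± 0.751 of cells with 0 Foxa2 UMIs, and Nr4a2 in 4.66% ± 2.66 and 2.44% ± 0.463 (SD, n = 8 libraries). Neither difference passed the adjusted threshold. Shares are given for cells thinned to 8000 UMIs, because deeper cells show more rare transcripts. En1 was detected in 2.00%, 11.3%, 9.09% and 0% of the Foxa2-positive cells of 37°C replicates 1 to 4 and in 2.17%, 3.33%, 6.0% and 4.35% of those of 39°C replicates 1 to 4. In the cells with 0 Foxa2 UMIs the En1 share ran from 5.17% to 7.36%. The members of 37°C replicates 2 and 3 and of 39°C replicate 3 lay above their own library's comparison cells and the other 5 libraries lay below. The mean difference was -1.78 percentage points (SD 3.74, n = 8 libraries, two-sided exact sign-flip permutation test, p = 0.219, adjusted p = 0.328 over 3 shares). In all, 19 of 356 members and 654 of 9994 comparison cells held an En1 UMI after thinning. The zero in 37°C replicate 4 rests on 38 cells and its 95% exact interval reaches 9.25%.

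Nr4a2 was detected in 2.00%, 3.77%, 3.03% and 7.90% of the Foxa2-positive cells of 37°C replicates 1 to 4 and in 6.52%, 3.33%, 2.00% and 8.70% of those of 39°C replicates 1 to 4. The comparison cells ran from 1.83% to 3.00%. The members lay above their comparison cells in 6 of 8 libraries, equal in 39°C replicate 3 and below in 37°C replicate 1. The mean difference was 2.22 points (SD 2.77, n = 8, exact sign-flip permutation test, p = 0.0469, adjusted p = 0.141), from 15 of 356 members and 238 of 9994 comparison cells. Without thinning the shares were 8.35% and 4.08% (n = 8, exact sign-flip permutation test, adjusted p = 0.0468), and the members are the deeper cells in that comparison. Matched cells, which are of like depth, stood at 4.43% without thinning, and the difference from them also passed. After thinning, the Nr4a2 difference passed with members of 1 or more UMIs and with a stricter mitochondrial limit, but not under the main rule. Nr4a2 lies on chromosome 2, as Foxa2 does, and the members held a larger share of UMIs from that chromosome (given below). The part of that larger share in the Nr4a2 difference was not tested. En1 and Nr4a2 were detected together in 1 of 356 members, a cell of 39°C replicate 1, and in 15 of 9994 comparison cells. At 4 libraries a temperature this test cannot reach 0.05, since its smallest p is 1 in 8. The differences between members and comparison cells at 39°C and at 37°C differed from each other by -0.577 points for En1 (exact permutation test over 70 assignments, p = 0.857), by 1.19 points for Nr4a2 (p = 0.543) and by 0.470 points for both together (p = 0.4).

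The wider floor plate and dopaminergic programme was at or near 0 in Foxa2-positive cells. Of 25 listed floor plate and midbrain precursor genes, 3 were abundant enough to test. Foxa1, Foxa3, Lmx1a, Lmx1b, En2, Pitx3, Otx2 and Corin had 0 UMIs in the members at both temperatures, which allows up to 0.772 CPM in the pooled members at 37°C and 1.24 CPM at 39°C (3 counts of the total). Matched cells held at most 2 UMIs of any of these genes at a temperature, so the zeros do not separate the classes. Slit2, a guidance ligand of the midline, was higher in the members by 0.26 (SE 0.06, adjusted p = 0.00745) on the log2 scale. The Slit2 call was lost without 37°C replicate 3 or 39°C replicate 1. Ntn1, the floor plate guidance cue, differed by -0.24 (SE 0.12, adjusted p = 0.243). En1 and Nr4a2 were too low for the test. In a fit without the limit on low levels, En1 differed by 0.16 (SE 0.22, adjusted p = 1) and Nr4a2 by 0.90 (SE 0.34, adjusted p = 0.143), and neither was called.

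Of 14 listed genes of dopamine synthesis, transport and turnover, 2 were testable. Th (tyrosine hydroxylase, the rate-limiting enzyme), Ddc, Slc6a3 and Drd2 had 0 UMIs in the members at both temperatures. Matched cells held 1 Th UMI at 37°C and 0 at 39°C, and 0 UMIs of Ddc, Slc6a3 and Drd2. These zeros therefore do not separate members from matched cells. Maoa, which degrades monoamines, was higher by 0.26 (SE 0.08, adjusted p = 0.0314), and that call was lost when 37°C replicates 3 or 4 or 39°C replicates 1 or 3 were left out, and against all cells with 0 Foxa2 UMIs (0.20, adjusted p = 0.0828). Aldh1a1, an aldehyde dehydrogenase of a subset of dopaminergic neurons, had 62 UMIs in the members at 39°C, and 1 cell of replicate 1 held all of them. Of 14 listed sonic hedgehog pathway genes, 7 were testable and 0 were called by edgeR, with 0 UMIs of the ligand Shh and of the target Gli1 in the members at both temperatures. The median difference of these 7 genes was -0.08, beside 0.0067 over all genes tested, and the largest in size was Gas1, a coreceptor, at -0.22 (SE 0.11, adjusted p = 0.277). Gas1 was called lower against all cells with 0 Foxa2 UMIs, at -0.37 (SE 0.10, adjusted p = 0.0221), and with members of 1 or more UMIs, at -0.28 (adjusted p = 0.000356). Matched cells held 5 Shh UMIs and 1 Gli1 UMI at each temperature, so the zeros of Shh and Gli1 do not separate the classes.

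Outside that programme, Foxa2-positive cells differed from matched cells of their own library in many genes. With Foxa2 left out, 522 of 8333 tested genes (6.26%) passed an adjusted p of 0.05 over both temperatures in edgeR's quasi-likelihood test on summed counts, 294 of them higher in the members (3.53%) and 228 lower (2.74%). At 37°C alone 247 genes passed (2.96%), 99 higher (1.19%) and 148 lower (1.78%), and at 39°C alone 216 passed (2.59%), 136 higher (1.63%) and 80 lower (0.960%). Members were above matched cells in 8 of 8 libraries for 167 genes (2.00%) and below in 8 of 8 for 165 (1.98%). The split between directions moved with the scaling, since with plain totals in place of TMM factors it was 231 higher and 270 lower over both temperatures and 97 higher and 94 lower at 39°C. Against all cells with 0 Foxa2 UMIs, 538 of 8349 genes passed (6.44%), 257 higher (3.08%) and 281 lower (3.37%). Calls depended on single libraries: over both temperatures the count was 311 without 37°C replicate 3 and 339 without 39°C replicate 3. At 37°C the count was 133, 159 and 95 without replicates 1, 2 and 3, and at 39°C it was 102 and 79 without replicates 1 and 3. The labels do not say whether the libraries of a temperature came from separate cultures, so these p-values measure the spread between these samples. DESeq2 called 205 genes, and limma on the 8 log2 ratios called 0, with 1192 at an unadjusted p of 0.05 (1573 in edgeR).

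Among genes with at least 20 CPM in the higher class, Fgf7 (keratinocyte growth factor, a secreted ligand for epithelial cells, ENSMUSG00000027208, chr2:126034658-126091185 in GRCm38) had the largest rise over both temperatures. At 37°C, Fgf7 measured 65.9, 36.7, 52.1 and 16.7 CPM in the Foxa2-positive cells of replicates 1 to 4 and 9.17, 8.44, 12.2 and 13.9 CPM in their matched cells. At 39°C it measured 18.3, 18.7, 32.0 and 13.8 CPM in the Foxa2-positive cells and 2.51, 3.66, 3.05 and 2.71 CPM in the matched cells. The members lay above their matched cells in 8 of 8 libraries, by the least in 37°C replicate 4. The log2 fold change was 2.48 (SE 0.21, adjusted p = 2.26e-12) over both temperatures, 2.06 at 37°C and 2.9 at 39°C. After thinning, an Fgf7 UMI was found in 17.9% of members, 8.96% of cells with 1 Foxa2 UMI and 5.74% of cells with none at 37°C, and in 14.1%, 6.52% and 2.96% at 39°C.

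Tm4sf1, a tetraspanin-like membrane protein (ENSMUSG00000027800, chr3:57285611-57301988), was next. At 37°C, Tm4sf1 measured 42.0, 31.4, 73.5 and 83.5 CPM in the Foxa2-positive cells of replicates 1 to 4 and 21.0, 18.1, 17.5 and 33.2 CPM in their matched cells. The 39°C replicates gave 43.5, 30.4, 48.7 and 13.8 CPM in the members and 10.0, 9.61, 11.9 and 6.78 CPM in the matched cells. It was higher in 8 of 8 libraries, with a log2 fold change of 1.66 (SE 0.15, adjusted p = 3.41e-12). Gsta4, a glutathione transferase that clears lipid peroxidation aldehydes (ENSMUSG00000032348, chr9:78182774-78209349), followed. At 37°C, Gsta4 measured 64.7, 52.0, 145 and 42.7 CPM in the Foxa2-positive cells of replicates 1 to 4 and 15.2, 25.5, 23.7 and 17.2 CPM in their matched cells. In the 39°C libraries the members held 16.02, 4.68, 44.8 and 13.8 CPM and their matched cells 4.79, 5.95, 17.3 and 7.46 CPM. It was higher in 7 of 8 libraries, and 39°C replicate 2 was the exception. Its log2 fold change was 1.60 (SE 0.19, adjusted p = 2.02e-08). At least 1 of Fgf7, Tm4sf1 and Gsta4 was detected after thinning in 52.7% of members and 23.4% of cells with 0 Foxa2 UMIs at 37°C, and in 28.9% and 11.5% at 39°C. At least 2 of them were detected in 15.9% and 3.68% at 37°C and in 10.7% and 1.77% at 39°C, as a description of genes chosen for their rise.

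Spp1 (osteopontin, a secreted matrix phosphoprotein) was the most abundant of the leading rises. At 37°C, Spp1 measured 237, 302, 261 and 186 CPM in the Foxa2-positive cells of replicates 1 to 4 and 136, 168, 221 and 164 CPM in their matched cells. Members of the 39°C libraries were at 736, 580.5, 864 and 898 CPM, beside 422, 183, 413 and 200 CPM in matched cells. Every library showed the rise. The log2 fold change was 0.91 (SE 0.08, adjusted p = 1.83e-12). Osr1, a zinc finger factor of mesoderm, rose by 0.91 (SE 0.14, adjusted p = 3.60e-06), with 39°C replicate 4 below its matched cells. Ptgs1 (cyclooxygenase 1, which starts prostaglandin synthesis) rose by 0.87 (SE 0.12, adjusted p = 1.36e-06) and Creg1, a secreted lysosomal glycoprotein, by 0.82 (SE 0.11, adjusted p = 8.13e-07), both in 8 of 8 libraries. Enpp2 (autotaxin, which makes lysophosphatidic acid), Gcnt1 (a glycosyltransferase of O-glycan branching) and Nppc (C-type natriuretic peptide) completed the 10 largest, at 0.80 (SE 0.21), 0.79 (SE 0.19) and 0.78 (SE 0.15). These last 3 calls depended on single libraries: Enpp2 was lost without 37°C replicate 2 or 3, Gcnt1 without 37°C replicate 3, 39°C replicate 3 or 39°C replicate 4, and Nppc without 37°C replicate 2. Enpp2 changed sign, to -0.17, when cells with over 5000 genes were left out, and against all cells with 0 Foxa2 UMIs it was 0.42 (adjusted p = 0.19).

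**Figure D2:**
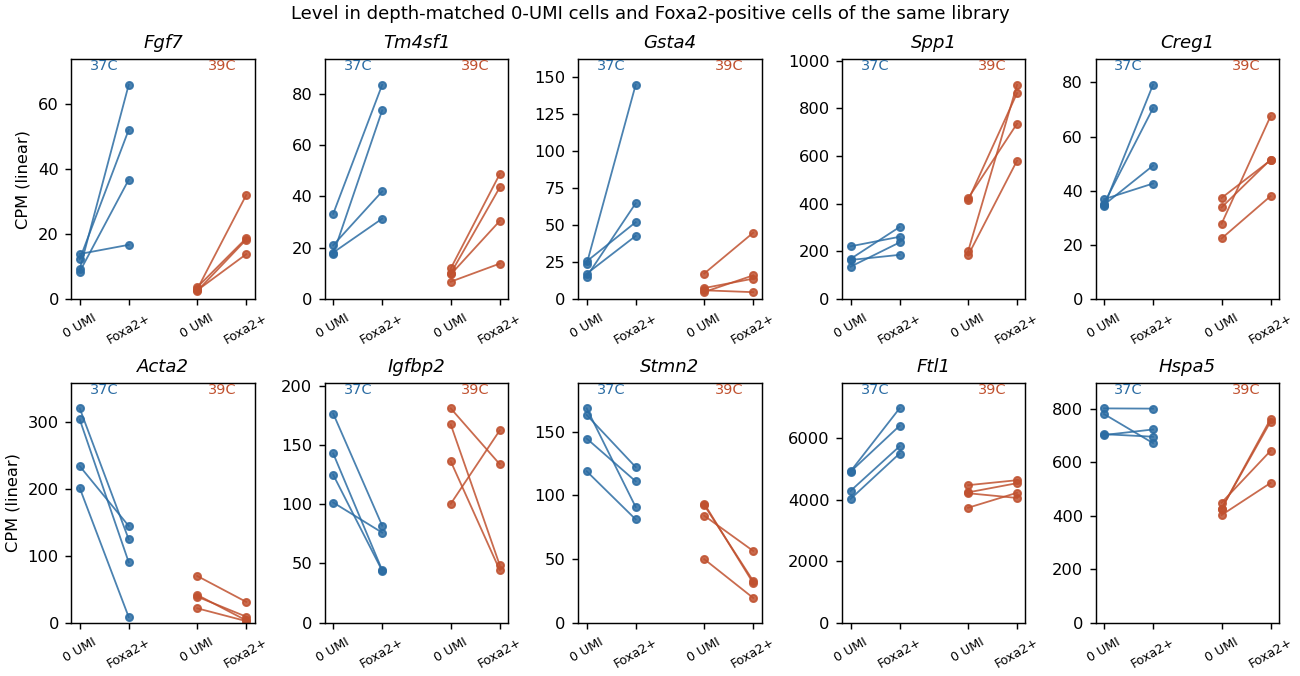
Level of 10 genes (y axis, CPM on a linear scale from 0) in matched cells with 0 Foxa2 UMIs and in Foxa2-positive cells of the same library (x axis), with 1 line per library, blue at 37°C and red at 39°C. Fgf7, Tm4sf1, Spp1 and Creg1 rise in 8 of 8 libraries, Acta2 and Stmn2 fall in 8 of 8, and Hspa5 rises along the 39°C lines.

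A group of genes for glutathione, thioredoxin and iron storage was higher in Foxa2-positive cells. The cell makes glutathione through the Gclc and Gclm subunits of glutamate-cysteine ligase and conjugates it to reactive compounds through transferases. Many of these genes are known targets of the stress factor Nrf2. This list was drawn up after the values had been seen, so its count is a description. Of 33 genes 32 were tested, 20 were called higher and 0 lower over both temperatures, beside 3.53% and 2.74% of all tested genes. Their median difference was 0.246, beside 0.0067 over all tested genes. At 37°C 15 were called higher (1.19% of all genes) and at 39°C 11 (1.63%), and 0 were called lower at either temperature.

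Gclc, the catalytic subunit, was higher in 8 of 8 libraries. At 37°C, Gclc measured 159, 115, 183 and 87.2 CPM in the Foxa2-positive cells of replicates 1 to 4 and 70.7, 73.0, 75.0 and 61.7 CPM in their matched cells. At 39°C it measured 210.5, 288, 275 and 238 CPM in the Foxa2-positive cells and 171, 186, 183 and 169.5 CPM in the matched cells. Its log2 fold change was 0.74 (SE 0.07, adjusted p = 2.60e-11), and that of Gclm, the modifier subunit, was 0.39 (SE 0.08, adjusted p = 0.00128). Among the transferases, Gstm1 rose by 0.54 (SE 0.05, adjusted p = 2.60e-11), and its lowest member value, 239 CPM in 37°C replicate 4, lay above the 183 CPM of its matched cells. Mgst1, a microsomal transferase, rose by 1.38 (SE 0.20, adjusted p = 2.04e-06), Mgst2 by 0.90 (SE 0.21) and Mgst3 by 0.31 (SE 0.06). Nqo1 (a quinone reductase), Srxn1 (sulfiredoxin), Txnrd1 (thioredoxin reductase) and Aldh3a1 (an aldehyde dehydrogenase) rose by 0.72 (SE 0.11), 0.66 (SE 0.12), 0.40 (SE 0.06) and 0.70 (SE 0.10). Abcc4, an exporter of organic anions, rose by 1.21 (SE 0.21, adjusted p = 8.44e-05). The ferritin chains Ftl1 and Fth1, which store iron, rose by 0.26 (SE 0.03) and 0.18 (SE 0.03), and both have near-identical processed copies in the genome that can take or lend reads. Hmox1 differed by 0.19 (SE 0.08, adjusted p = 0.177) and Gpx4 by 0.03 (SE 0.04, adjusted p = 0.719), and neither was called.

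Nrf2 is known to bind the antioxidant response element, so the 250 bases before each gene's start were searched for the letters TGACNNNGC, the core of the antioxidant response element, on both strands. The promoters are RefSeq's, on GRCm38.p6. Counted by gene, with a match at any listed start, the letters occurred in 11.5% of all 27025 genes with an entry. They occurred in 14.1% of tested genes with an entry, in 33 of the 239 called higher that had one (13.8%) and in 15.2% of those called lower. Among the 20 listed genes called higher, 16 had an entry and 5 held the letters: Abcc4, Gclm, Mgst1, Prdx1 and Txnrd1. The stretch around the match is shown for each, read 5′ to 3′ on the strand of the gene, with the match in capitals. In the 5 stretches the match lies on the opposite strand to the gene, so that it appears as GCNNNGTCA.
Mgst1 (chr6:138140446-138140504, plus strand): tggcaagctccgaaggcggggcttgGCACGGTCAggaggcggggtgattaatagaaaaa
Gclm (chr3:122245398-122245456, plus strand): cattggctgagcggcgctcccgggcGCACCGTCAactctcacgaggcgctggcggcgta
Prdx1 (chr4:116685441-116685499, plus strand): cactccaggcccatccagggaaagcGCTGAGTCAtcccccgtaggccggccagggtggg
Txnrd1 (chr10:82859089-82859147, plus strand): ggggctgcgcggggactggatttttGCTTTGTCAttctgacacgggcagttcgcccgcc
Abcc4 (chr14:118706220-118706269, minus strand): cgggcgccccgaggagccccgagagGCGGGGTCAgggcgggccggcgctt
Abcc4 held a further match at another start, which is not shown. A match of these letters is a description of the sequence, and binding was not measured here.

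Among genes with at least 20 CPM in the higher class, Acta2 (smooth muscle actin, ENSMUSG00000035783, chr19:34241090-34255590) had the largest fall over both temperatures. At 37°C, Acta2 measured 125, 90.5, 8.43 and 145 CPM in the Foxa2-positive cells of replicates 1 to 4 and 320.5, 304, 201 and 234 CPM in their matched cells. The 39°C replicates gave 3.43, 2.34, 8.97 and 31.1 CPM in the members and 41.5, 21.5, 38.9 and 69.8 CPM in the matched cells. The members lay below in 8 of 8 libraries, furthest in 37°C replicate 3. The log2 fold change was -2.0 (SE 0.22, adjusted p = 4.21e-09). At 39°C the gene was near the low end of what could be counted, since 20 UMIs were found in 10 members and 1 cell held 6 of them. The 39°C call was lost without 39°C replicate 1, and the overall call was lost with robust estimates of the spread (adjusted p = 0.0913) and with limma on voom values (adjusted p = 0.129).

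Tagln (transgelin, an actin-binding protein, chr9:45929619-45936058) fell with it. At 37°C, Tagln measured 21.6, 83.3, 12.2 and 29.7 CPM in the Foxa2-positive cells of replicates 1 to 4 and 139.5, 181, 90.4 and 104 CPM in their matched cells. In the 39°C libraries the members held 1.14, 4.68, 7.69 and 10.4 CPM and their matched cells 6.61, 21.5, 24.1 and 10.8 CPM. Its log2 fold change was -1.72 (SE 0.22, adjusted p = 8.89e-08), lower in 8 of 8 libraries, and 1 member held 6 of the 12 Tagln UMIs counted at 39°C. Of 10 listed contractile genes 8 were tested, 5 were called lower and 0 higher, beside 2.74% and 3.53% of all tested genes, with a median of -0.207 against 0.0067 over all tested genes. At 37°C 5 were called lower (1.78% of all genes) and at 39°C 2 were (0.960%). Myl9 (myosin light chain), Tpm1 (tropomyosin) and Cyr61 were the other calls over both temperatures, at -1.97 (SE 0.49), -0.21 (SE 0.03) and -0.20 (SE 0.06). Myl9 was near the low end of counting at 39°C, with 1.14, 0, 0 and 0 CPM in the members of replicates 1 to 4. Their matched cells held 3.19, 0.915, 5.08 and 2.03 CPM.

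The other leading falls came from several families. Igfbp2, which binds insulin-like growth factors, fell by 0.98 on the log2 scale (SE 0.12, adjusted p = 2.02e-08). At 37°C, Igfbp2 measured 44.4, 43.9, 82.0 and 76.1 CPM in the Foxa2-positive cells of replicates 1 to 4 and 143, 125, 177 and 102 CPM in their matched cells. Members of the 39°C libraries were at 134, 44.5, 48.7 and 162 CPM, beside 181, 136, 167 and 100.4 CPM in matched cells. The exception was 39°C replicate 4, where the members lay above. Ogn (osteoglycin, a matrix proteoglycan) differed by -1.14 (SE 0.15, adjusted p = 4.71e-07), Slc7a2 (a cationic amino acid transporter) by -1.14 (SE 0.22, adjusted p = 0.000452) and Fez1 (an adaptor of axonal transport) by -1.04 (SE 0.19, adjusted p = 0.00023). Runx1t1, a transcriptional corepressor, fell at 37°C to 3.83 to 9.59 CPM from 17.5 to 22.7 CPM, with no overlap between the classes, a log2 fold change of -1.68 (SE 0.27). Clmn, Adgrl2, Hs6st2 (a heparan sulfate sulfotransferase) and the predicted gene Gm26870 made up the 10 largest falls, at -0.94 (SE 0.17), -0.88 (SE 0.18), -0.83 (SE 0.15) and -0.86 (SE 0.21). The Gm26870 call was lost without 39°C replicate 1. The Igfbp2 call was lost with robust estimates of the spread (adjusted p = 0.0866) and with limma on voom values (adjusted p = 0.0872), and the Slc7a2 call with limma on voom values (adjusted p = 0.0988).

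Several targets of p53, the damage-response factor, were lower in Foxa2-positive cells. All 20 listed targets were tested, 9 were called lower and 1 higher, beside 2.74% and 3.53% of all genes. Of the 20, 2 lay above 0 and the median was -0.184, beside 0.0067 over all tested genes. Cdkn1a, the cell-cycle inhibitor p21, measured 992, 1098, 1051 and 1054 CPM in the members of the 37°C replicates and 1423, 1145, 1257 and 1173 CPM in matched cells. At 39°C it measured 1929, 2137, 2125 and 2049 CPM and 2149, 2492, 2413 and 2493 CPM. The members lay below in 8 of 8 libraries, at -0.23 (SE 0.04) on the log2 scale. Mdm2, the ubiquitin ligase that degrades p53, differed by -0.27 (SE 0.04, adjusted p = 1.37e-05), and Btg2, an antiproliferative factor, by -0.28 (SE 0.05, adjusted p = 9.02e-05). Trp53inp1, Ei24, Fas, Ccng1, Pmaip1 and Phlda3 were also called lower, from -0.55 for Pmaip1 to -0.12 for Phlda3. Gdf15, a secreted stress cytokine, was the 1 higher, at 0.26 (SE 0.07, adjusted p = 0.0115). The Gdf15 and Ccng1 calls were lost against all cells with 0 Foxa2 UMIs, at 0.19 (adjusted p = 0.1) and -0.11 (adjusted p = 0.111).

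**Figure D3:**
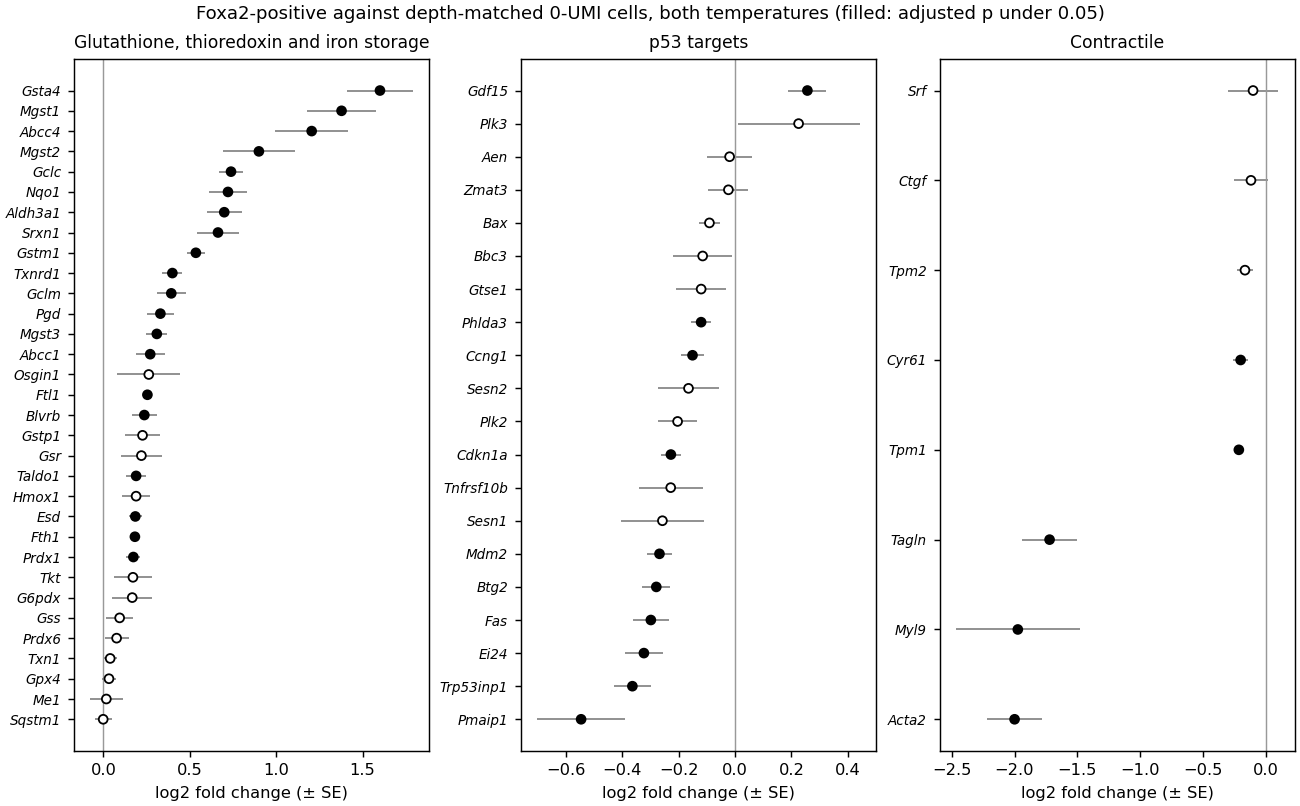
Log2 fold change of each tested gene of the glutathione, thioredoxin and iron list, the p53 list and the contractile list in Foxa2-positive against matched cells over both temperatures (x axis, bars ± SE; y axis, gene), filled where the adjusted p is under 0.05. In the first list 20 of 32 genes are filled, each of them above 0, in the p53 list 9 of 20 are filled below 0 and 1 above, and in the contractile list 5 of 8 are filled below 0.

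Genes encoded by the mitochondrial genome were higher in the members. Of 13 listed, 7 were called higher and 0 lower, beside 3.53% and 2.74% of all tested genes. All 13 lay above 0, with a median of 0.108 against 0.0067 over all tested genes. The subunits of complex I mt-Nd1 and mt-Nd3 rose by 0.21 (SE 0.03, adjusted p = 3.37e-08) and 0.19 (SE 0.03, adjusted p = 1.21e-05), in 8 of 8 libraries. The median mitochondrial share of UMIs moved with this, at 7.74% to 9.63% in members against 7.24% to 8.14% in matched cells, higher in 8 of 8 libraries, and its part in the other differences was not tested. Xist, the non-coding RNA of the silent X chromosome, rose by 0.33 (SE 0.04, adjusted p = 2.07e-07), in 8 of 8 libraries, and by 0.20 against all cells with 0 Foxa2 UMIs. It was 1 of 4 tested nuclear RNAs. Malat1 differed by -0.06 (SE 0.02, adjusted p = 0.16), and by -0.12 (adjusted p = 0.00267) against all cells with 0 Foxa2 UMIs.

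None of the tested markers of neurons, endoderm or mesenchyme was called higher in Foxa2-positive cells over both temperatures. The counts in these lists stand beside 3.53% of all tested genes called higher and 2.74% called lower, and beside an all-gene median of 0.0067. Of 16 neuronal genes 4 were testable, 2 were called lower and 0 higher. Stmn2, which regulates microtubules in growing axons, differed by -0.80 (SE 0.10, adjusted p = 2.48e-08), lower in 8 of 8 libraries, and Map2 by -0.56 (SE 0.13, adjusted p = 0.00482). Of 22 endoderm and epithelial genes, among which Foxa2 is a classical regulator, 2 were testable. Dsp (desmoplakin) was called lower, at -0.70 (SE 0.18, adjusted p = 0.00791), but it lost that call once 37°C replicate 1 was left out. Krt19 was not called, at -0.16 (SE 0.18, adjusted p = 0.699). Sox17 and Hnf4a had 0 UMIs in the members and in matched cells at both temperatures. Afp, too low to test, had 15 UMIs in the members at 37°C (3.862 CPM, against 1.395 CPM in matched cells). At 39°C Afp had 0 UMIs in the members and 7 in matched cells. Gata4, also untested, measured 1.802 CPM in the members and 1.602 CPM in matched cells at 37°C, and 1.66 and 2.914 CPM at 39°C. Gata6, untested too, measured 2.06 and 2.894 CPM at 37°C and 1.66 and 4.329 CPM at 39°C. Of 16 mesenchymal genes 10 were testable. Col1a1 and Sparc were called lower, at -0.17 (SE 0.04) and -0.12 (SE 0.04), and these calls were lost without 37°C replicate 1 or 39°C replicate 2 and, for Sparc, also without 37°C replicate 2 or 3. Both were also lost against all cells with 0 Foxa2 UMIs, at -0.11 (adjusted p = 0.0884) for Col1a1 and -0.09 (adjusted p = 0.0805) for Sparc. Of 9 tested neural progenitor genes 2 were higher and 2 lower. Nes, the intermediate filament nestin, was called lower at -0.30 (SE 0.07), a call lost without 39°C replicate 3, and Hes1, a Notch target, at -0.23 (SE 0.07). Id1, an inhibitor of differentiation factors, was higher by 0.20 (SE 0.05). The Hes1 call was lost without 37°C replicate 1, 37°C replicate 4 or 39°C replicate 2, and the Id1 call without 37°C replicate 3 or 39°C replicate 3. Against all cells with 0 Foxa2 UMIs neither Nes, at -0.11 (adjusted p = 0.305), nor Id1, at 0.08 (adjusted p = 0.294), was called.

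The remaining lists held few calls, here too beside 3.53% of all tested genes higher and 2.74% lower. Of 14 tested heat shock genes 2 were higher, Hspa5 by 0.30 (SE 0.04) and Hspd1 by 0.18 (SE 0.06), and the Hspd1 call was lost when 37°C replicates 1 or 3 or 39°C replicates 1 or 3 were left out. Of 11 tested immediate early genes Junb was lower, at -0.26 (SE 0.05, adjusted p = 0.000799) over both temperatures. At 39°C alone Junb was lower at -0.37 (SE 0.07), while Nr4a1, an orphan nuclear receptor, was higher at 0.81 (SE 0.20, adjusted p = 0.0143) and Jun at 0.35 (SE 0.10, adjusted p = 0.0448), beside 1.63% of all genes higher and 0.960% lower. Against all cells with 0 Foxa2 UMIs the Nr4a1 and Jun calls at 39°C were lost, at 0.45 (adjusted p = 0.195) and 0.32 (adjusted p = 0.0628). Of 12 tested genes of Wnt, TGF-beta and BMP signalling, the receptor Fzd2 was lower at -0.38 (SE 0.09) and the nuclear effector Tcf7l2 higher at 0.28 (SE 0.08). The Fzd2 call was lost without 39°C replicate 3, and the Tcf7l2 call when any 1 of 5 libraries was left out (37°C replicates 1 and 3, 39°C replicates 2, 3 and 4). Among 15 tested genes of cholesterol synthesis and 2 tested glial genes, edgeR called 0. The cholesterol list had a median of -0.10, and Fdft1, squalene synthase, had its lowest p at -0.26 (SE 0.11, adjusted p = 0.177).

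Foxa2 lies on chromosome 2, and Foxa2-positive cells held a larger share of UMIs from that chromosome with Foxa2 itself left out. The log2 ratio of the chromosome 2 share between members and matched cells was 0.0771, 0.114, 0.132 and 0.114 in 37°C replicates 1 to 4 and 0.100, 0.164, 0.0637 and 0.00696 in 39°C replicates 1 to 4. All 8 libraries lay above 0, with 39°C replicate 4 close to it. The mean was 0.0964 (SD 0.0477, n = 8, two-sided exact sign-flip permutation test, p = 0.00781, the smallest that 8 libraries allow, adjusted p = 0.0312 over 20 chromosomes). Chromosome 5 (mean 0.0845) and chromosome 17 (0.0296) were also higher in 8 of 8 libraries, and chromosome 8 (-0.0469) and chromosome 9 (-0.0870) were lower in 8 of 8, with the same p. Chromosome 7 (0.0494) was higher in 7 of 8 and chromosome 13 (-0.0752) lower in 7 of 8 (exact sign-flip permutation test, n = 8, adjusted p = 0.0446 each).

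**Figure D4:**
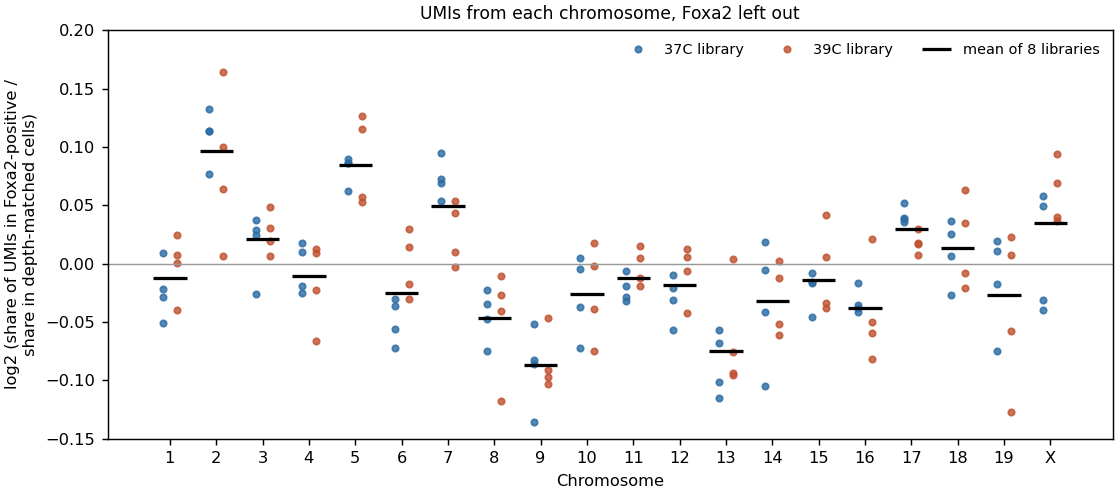
Log2 ratio of the share of UMIs from each chromosome in Foxa2-positive over matched cells (y axis; x axis, chromosome; points are libraries, blue at 37°C and red at 39°C, and black bars are means of 8 libraries). Chromosome 2 has the highest mean, 0.0964, and chromosome 9 the lowest, -0.0870.

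The shift on chromosome 2 was spread over many genes. Of its 699 tested genes 70 were called higher (10.0%, beside 3.53% of all tested genes) and 8 lower (1.14%), the median log2 fold change was 0.126, and 76.7% of the genes lay above 0. The medians were 0.118 at 37°C and 0.126 at 39°C. In windows of 20 Mb counted from the Foxa2 start the median ran from 0.056 to 0.153, and all 10 windows were above 0. In the window that holds Foxa2 it was 0.113, over 99 genes. Of the genes within 1 Mb of Foxa2, 3 were testable, and all were called higher: Nxt1, an RNA export factor (0.40 (SE 0.11), chr2:148672601-148676027), Gzf1, a zinc finger repressor (0.41 (SE 0.12), chr2:148681023-148692949), and Cst3 (cystatin C, a protease inhibitor, 0.22 (SE 0.04), chr2:148871722-148875692). Cst3 was higher in 8 of 8 libraries, while the Nxt1 call was lost without 37°C replicate 3, 39°C replicate 2 or 39°C replicate 3, and the Gzf1 call when any 1 of 4 libraries was left out (37°C replicates 2 and 3, 39°C replicates 3 and 4). The long non-coding gene next to Foxa2, 9030622O22Rik, had 0 UMIs in members and matched cells. A broad rise was not particular to chromosome 2. Of 548 tested genes on chromosome 5, 35 were higher (6.39%) and 6 lower (1.09%). Their median was 0.093, and 74.5% lay above 0. Of 460 tested genes on chromosome 9, 5 were higher (1.09%) and 32 lower (6.96%, beside 2.74% of all tested genes), with a median of -0.082.

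**Figure D5:**
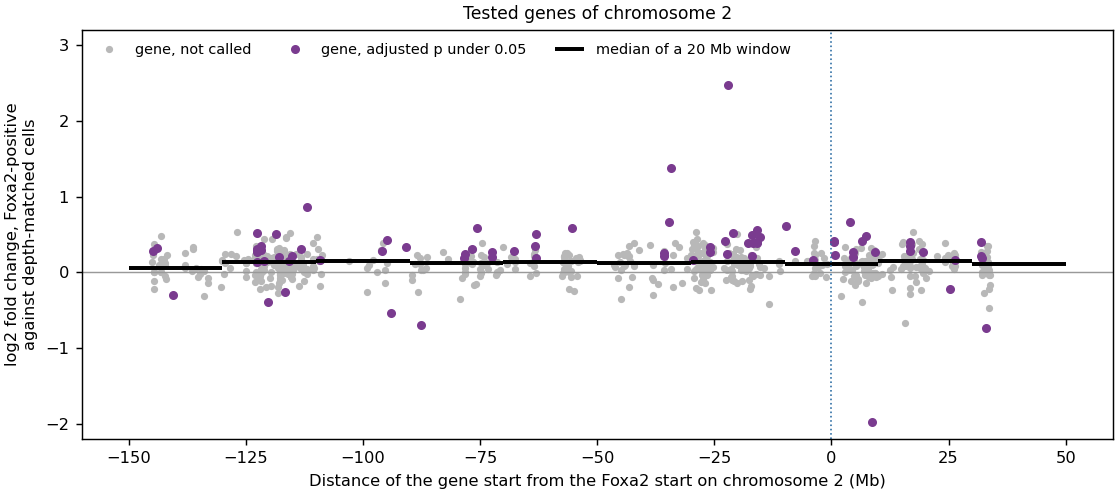
Log2 fold change of each tested gene of chromosome 2 in Foxa2-positive against matched cells over both temperatures (y axis) by distance of its start from the Foxa2 start (x axis, Mb), with called genes in purple and black bars for the median of each 20 Mb window. The window medians run from 0.056 to 0.153 along the whole chromosome.

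The effect of being Foxa2-positive was compared between the temperatures in the same fit. The difference passed for 20 of 8333 genes (0.240%), of which 17 had a higher effect at 39°C (0.204%) and 3 a lower one (0.0360%). The endoplasmic reticulum chaperone Hspa5 (BiP) passed with the lowest p. At 37°C, Hspa5 measured 722, 671, 695 and 799.6 CPM in the Foxa2-positive cells of replicates 1 to 4 and 701, 779, 704 and 800.5 CPM in their matched cells. At 39°C it measured 642, 761, 751 and 522 CPM in the Foxa2-positive cells and 448, 426, 426 and 402 CPM in the matched cells. The classes overlapped at 37°C, while at 39°C the members lay above in 4 of 4 libraries. The effects were -0.05 at 37°C and 0.66 at 39°C, a difference of 0.71 (SE 0.09, adjusted p = 5.16e-07). Manf, a secreted factor of the same stress response, went from -0.24 to 0.61, a difference of 0.85 (SE 0.11, adjusted p = 1.34e-06). At 37°C, Manf measured 253, 267, 264 and 304 CPM in the Foxa2-positive cells of replicates 1 to 4 and 315, 321, 311 and 334 CPM in their matched cells. The 39°C replicates gave 219.7, 222, 236 and 179.7 CPM in the members and 131, 153, 152 and 142 CPM in the matched cells. Of 23 chaperones and foldases of the endoplasmic reticulum, a list drawn up after the values were seen, 4 were called in the difference (Hspa5, Manf, Hsp90b1 and Calr), all with a higher effect at 39°C, beside 0.204% of all genes. The median difference of the list was 0.306, beside 0.0113 over all genes. At 37°C 0 of them were called higher and 2 lower, beside 1.19% and 1.78% of all genes, and at 39°C 4 were called higher and 0 lower, beside 1.63% and 0.960%.

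The other genes whose effect was higher at 39°C included Spp1, Nes and the matrix proteins Fn1 and Fbn1. Spp1 went from 0.53 at 37°C to 1.30 at 39°C, a difference of 0.76 (SE 0.15, adjusted p = 0.00626). Nes was lower in the members in 4 of 4 libraries at 37°C, at 376, 358, 305 and 438 CPM against 577, 597, 497 and 668 CPM. At 39°C it was 124, 189.6, 129 and 96.8 CPM against 111, 108, 150.2 and 150.5 CPM, with 2 libraries above and 2 below, and the difference of the effects was 0.75 (SE 0.14, adjusted p = 0.00186). Fn1 (fibronectin) and Fbn1 (fibrillin) went from -0.35 and -0.48 to 0.32 and 0.27, and Timp1, Tmsb10, Actg1 and S100a4 were also called. Hsd17b7, an enzyme of sterol and steroid synthesis, went from -0.81 to 0.68 (difference 1.49 (SE 0.26, adjusted p = 0.000998)). Cenpf, Dut and Atad2, genes of dividing cells, were also higher at 39°C, but 1 member held 30.1% of the Cenpf UMIs there and the Cenpf difference was 0.14 with cells matched on phase as well. The Cenpf call was also lost without 37°C replicate 1 or 2 or 39°C replicate 2 or 4. Peg10, an imprinted gene of retroviral origin, completed the 17. Its call was lost without 39°C replicate 1 or 3. Against all cells with 0 Foxa2 UMIs the difference was not called for Peg10 (0.70, adjusted p = 0.214), Fn1 (0.42, adjusted p = 0.109), Fbn1 (0.63, adjusted p = 0.0727) or Atad2 (0.44, adjusted p = 0.225).

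The 3 genes with a lower effect at 39°C were Ftl1, Areg and Gm26870. Ftl1 went from 0.44 at 37°C, higher in 4 of 4 libraries, to 0.07 at 39°C, a difference of -0.36 (SE 0.05, adjusted p = 3.98e-05). At 37°C, Ftl1 measured 5494, 5729, 6395 and 6963 CPM in the Foxa2-positive cells of replicates 1 to 4 and 4021, 4283, 4908 and 4917 CPM in their matched cells. In the 39°C libraries the members held 4221, 4630.0, 4533 and 4053 CPM and their matched cells 3734, 4468, 4234 and 4206 CPM. Areg, a ligand of the epidermal growth factor receptor, differed by -0.65 (SE 0.15, adjusted p = 0.0445), and the call was lost when any 1 of 6 libraries was left out (37°C replicates 1, 2 and 3, 39°C replicates 1, 2 and 4). Gm26870 differed by -1.97 (SE 0.45, adjusted p = 0.0258), and that call was lost without 37°C replicate 1, 2 or 3 or 39°C replicate 1. Against all cells with 0 Foxa2 UMIs neither was called, with adjusted p = 0.101 for Areg and 0.0633 for Gm26870. The number of genes called in the difference was 12 without 37°C replicate 2 or 39°C replicate 3 and 31 without 37°C replicate 4.

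Foxa2-positive cells themselves differed strongly between the temperatures, with 2631 of 8352 genes called between 39°C and 37°C (31.5%), 1278 higher at 39°C and 1353 lower. Among the genes named above, Slc7a2 was 3.28 higher on the log2 scale at 39°C in the members and 2.27 in the matched cells, and Enpp2 was 2.86 and 3.10. Spp1 was 1.62 in the members and 0.85 in the matched cells. Acta2 differed by -3.25 and -2.70, Nes by -1.43 and -2.18, and Cdkn1a by 0.98 and 0.93. Hspa5 differed by -0.09 in the members (adjusted p = 0.567, not called) and by -0.81 in the matched cells. The classes come from the same libraries, so these values are given side by side.

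No phase share passed the test. Phases were assigned by gene score on thinned cells, and the members were in G1 in 51.8%, S in 28.1% and G2M in 20.2% on average over libraries, against 55.6%, 25.1% and 19.3% of cells with 0 Foxa2 UMIs. The differences were -3.87, 3.02 and 0.851 percentage points (n = 8, two-sided exact sign-flip permutation tests, adjusted p = 0.176, 0.176 and 0.539 over 3 phases). The S share was higher in the members in 7 of 8 libraries. With comparison cells matched on phase as well as depth, 443 genes were called, of which 409 were among the 522.

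Cells with exactly 1 Foxa2 UMI, which the rule left out, were set against matched cells in the same way. At 2 matched cells each, 1044 of 8343 genes were called (12.5%), 516 higher (6.18%) and 528 lower (6.33%), of which 298 were among the 522, and these cells are 1489 against 356. The Fgf7 and Tm4sf1 differences were 1.07 and 0.92 in them, below those of the members, and Acta2 differed by -0.29. Creg1 differed by 0.03, which was not called. The chromosome 2 share differed by 0.0145 in them (n = 8, exact sign-flip permutation test, adjusted p = 0.0893), beside 0.0964 in the members.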

How the data were processed

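Trypsinized SN4741 cells were captured in droplets with a 3' kit whose reads count transcript ends, so levels need no scaling by gene length. The authors aligned reads with Cell Ranger 3.0.1 to mm10 and deposited 1 matrix of raw UMI counts a library (genes by cells), with no normalization. From these counts, cells were kept by the limits given in the report, and Foxa2 was left out of every gene sum and gene test. Counts were summed over the members and over the comparison cells of each library, giving 16 sums, and genes with a mean of at least 10 CPM were tested. edgeR 4.0.16 in R 4.3.3 (TMM factors, glmQLFit and glmQLFTest) was run with library as a block and a term for members at each temperature, with Benjamini-Hochberg adjustment over all tested genes and a threshold of 0.05. Each standard error was derived from the log2 fold change and its F statistic. Phases came from Seurat 5.3.0 (CellCycleScoring). Detection and phase shares and chromosome sums were compared with exact permutation tests in Python 3.11.15, and binomial intervals are exact (Clopper-Pearson, 95%) and cover counting error only. Alternatives used DESeq2 1.42.0, limma 3.58.1, other scalings, filters, cell limits and member rules, and each library left out in turn. The edgeR fits were also run on simulated counts with known changes. Cell selection, depth matching, thinning, phase scoring and the permutation tests were not simulated.

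The genes named are the listed floor plate, dopamine and hedgehog genes, up to 10 largest called rises and falls with at least 20 CPM in the higher class, up to 3 called genes a direction at each temperature and in the difference, the 3 lowest p of each other list, and tested genes within 1 Mb of Foxa2. The members and lists were chosen with earlier results of these data known. The glutathione and endoplasmic reticulum lists, their genes, the further genes called in the difference and Jun were named after their values were seen. Gene positions come from a GENCODE annotation, and promoter positions from RefSeq's table for GRCm38.p6, the assembly of mm10. Some listed genes are not reported here.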

Additional observations from a re-analysis of the deposited data

Results flagged for a closer look

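In 74 groups of 4 libraries, a library far from the other 3 was looked for, and chance gives such a flag in about 1 group in 20. Ogn in the members of 39°C replicate 4 measured 41.46 CPM, beside 4.682 to 8.009 CPM in the other 39°C replicates. The G2M share of the members of 37°C replicate 4 was 28.95%, beside 34.85% to 36.0%. En1 and Nr4a2 were detected together in 2.174% of the members of 39°C replicate 1, which is 1 cell, beside 0% in the other 3.

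Among the genes chosen by the naming rule, 9 had an effect of being Foxa2-positive that differed between the temperatures (edgeR, test of the difference). Over all 8333 tested genes the count was 20 (0.240%). The rule named Hsd17b7, Peg10, Cenpf, Ftl1, Areg and Gm26870 because they were called in this difference, Gm26870 also for its falls. The count of 9 is therefore a description and not a rate. On the log2 scale, as 39°C minus 37°C, the values were 1.492 for Hsd17b7, 1.188 for Peg10, 1.044 for Cenpf, 0.7615 for Spp1, 0.7482 for Nes and 0.7112 for Hspa5. They were -0.3649 for Ftl1, -0.6452 for Areg and -1.967 for Gm26870.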

How the results depend on the processing

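Of 68 called gene values, 1826 repeats under alternatives kept direction and call in 1506, lost the call in 305 and changed sign in 15. Counts of genes are given in the order both temperatures, 37°C, 39°C and the difference. Main counts against matched cells were 522, 247, 216 and 20, and against all cells with 0 UMIs 538, 252, 173 and 18. Against matched cells, DESeq2 called 205, 79 and 71. An adjusted p of 0.01 gave 268, 126, 82 and 9. The limma test on 8 log2 ratios called 0 in each, with 1192, 608, 1114 and 541 at an unadjusted p of 0.05. Members with 1 or more UMIs gave 1489, 403, 1137 and 159, those with 3 or more 109, 67 and 52, and those with 2 or more after thinning 126, 24, 79 and 7. Cells with exactly 1 UMI gave 1044, 814 (39°C) and 84 (difference). An upper limit of 5000 genes gave 146, 113 and 10 for the last 3 counts. The difference was 36 without a filter on low counts, 32 with 10 matched cells, 31 with no lower limit on UMIs, 8 with no upper limit on genes and 47 with a mitochondrial share up to 10%. With each library left out the counts ran from 311 to 495, 95 to 287, 79 to 194 and 12 to 31.

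Against all cells with 0 UMIs, DESeq2 called 345 and 144, a threshold of 0.01 gave 234, 110, 53 and 8, and 1 or more UMIs gave 1624, 601, 1164 and 143. Members with 3 or more UMIs gave 146, 58 and 69, and 2 or more after thinning 194, 58, 104 and 11. At 39°C the count was 270 with no lower limit on UMIs, 102 with an upper limit of 5000 genes and 108 with a mitochondrial share up to 10%. The difference was 32 with filterByExpr, 34 without a filter, 36 with no lower limit on UMIs, 8 with 5000 genes and 4 with no upper limit on genes. Left-out libraries gave 342 to 493, 71 to 301, 60 to 173 and 7 to 20. Members at 39°C against 37°C gave 1741 at 0.01, 4960 with 1 or more UMIs, 480 with 3 or more, 849 after thinning, 1605 with 5000 genes and 2223 to 2438 with a library left out, beside 2631.

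Without a filter the split over both temperatures was 182 higher and 356 lower, and with limma on voom values 355 and 187. The difference in the share of members was 0.06249 points with 3 or more UMIs, 0.3188 after thinning under either definition, 0.1119 with 5000 genes and -1.006 to 0.07529 with a library left out. The En1 difference was 0.6974 unthinned, 0.6821 with 1 or more UMIs and -2.605 to -0.9818 with a library left out. The Nr4a2 difference passed at 4.271 unthinned, 3.922 unthinned against matched cells, 1.817 with 1 or more UMIs and 2.317 with a mitochondrial share up to 10%, and ran from 1.62 to 2.61. Both together gave -0.1727 with 3 or more UMIs or after thinning, -0.1825 with 5000 genes and -0.1204 to 0.1499. With 1 or more UMIs, after thinning and with a mitochondrial share up to 10%, G1 passed at -6.455, -7.24 and -6.016 and S at 6.452, 6.935 and 4.3. Left-out libraries gave -5.137 to -2.955 for G1, 2.271 to 4.224 for S and -0.4703 to 2.307 for G2M, which was -0.5715 with 5000 genes. The chromosome 2 ratio lost its call at 0.1482 with 3 or more UMIs, 0.1245 after thinning and 0.01445 with exactly 1 UMI. It was 0.08675 to 0.1092 with a library left out (exact sign-flip permutation test, n = 7, adjusted p = 0.0521 to 0.0625).

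Genes changed sign as follows, on the log2 scale. Enpp2 was -1.45 with 3 or more UMIs, -0.54 after thinning and -0.17 with 5000 genes, and Cenpf was -0.42 and its difference -2.55 with 3 or more UMIs. With exactly 1 UMI, Nppc was -0.11, Acta2 at 39°C 0.001, Map2 0.0025, Gzf1 -0.0112, Nes 0.11 and the differences of Gm26870 1.02 and of Areg 0.25. With 1 or more UMIs Nes was 0.0217 and those differences 0.52 and 0.10. The cause was not tested. Same-numbered libraries of the temperatures did not deviate together (correlations of the log ratios -0.0358, 0.00425, -0.00651 and 0.0288), so the numbers were not used as pairs. With the replicate block the difference called 16 genes against matched cells and 16 against all cells with 0 UMIs, members between temperatures 2487, and the member share was still -0.3044 points, a description. The members are few, 23 to 66 a library, and 284 of 356 hold the minimum of 2 UMIs, so low genes rest on few counts and doublets or free RNA were not measured.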
